A study of Mus musculus with 5 samples.

Results

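Secreted inhibitors of Wnt signalling, and the Kremen receptors, which are not secreted, were followed in mouse forelimb buds at E11.5. The embryos lacked both Sost and Sostdc1 or were wild type. The genes taken, called the inhibitors below, were the Dickkopf genes Dkk1, Dkk2, Dkk3 and Dkk4, the Dickkopf receptors Kremen1 and Kremen2, Notum and Wif1. Every probe set whose single platform symbol was one of these names was included, with no choice by level. Of these 8 genes, 7 had at least 1 probe set, giving 11 probe sets among the 45037 tested on the array. Kremen2 had no probe set under its symbol and was not analysed here.

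The double mutant group (genotype Sost-/-; Sostdc1-/-) held 2 arrays and the wild type group held 3, all from C57Bl/6 embryos. The labels say that embryos were not pooled, and each array was taken as a separate biological sample. The single comparison of the design asked how the forelimb bud differs when both antagonists are missing. The deposited values are linear intensities, given here as log2. A group is described by its mean ± SD, and a difference is the double mutant mean less the wild type mean, with the standard error of limma, a linear model fitted across all probe sets.

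Wnt proteins act on a Frizzled receptor and an LRP5 or LRP6 co-receptor, which together stabilise β-catenin. Sclerostin, the product of Sost, and the Sostdc1 protein occupy these co-receptors from outside the cell, and Dickkopf proteins do the same. Kremen proteins bind some Dickkopf proteins and help to clear the co-receptor from the cell surface. Notum removes the lipid that Wnt proteins need for receptor binding, and Wif1 binds Wnt proteins directly. Several of these inhibitors are themselves induced by β-catenin. In the mouse, loss of Dkk1 disturbs digit number and separation, and joint loss of both Kremen genes can give extra digits.

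The RefSeq promoter table (GRCm38.p6) held 4 of the 8 genes, namely Dkk1, Dkk2, Kremen2 and Wif1. The 250 bases before the start of the 3 measured ones are shown. Dkk4 and Notum, which were called in the comparison as Dkk1 was, had no entry, so the windows cannot set matches against calls. Capitals mark CTTTGNN with A or T at each N, the core letters bound by TCF/LEF factors, searched on both strands, and TATAAA on the gene's own strand.
Dkk1 chr19:30549497-30549746 (minus strand): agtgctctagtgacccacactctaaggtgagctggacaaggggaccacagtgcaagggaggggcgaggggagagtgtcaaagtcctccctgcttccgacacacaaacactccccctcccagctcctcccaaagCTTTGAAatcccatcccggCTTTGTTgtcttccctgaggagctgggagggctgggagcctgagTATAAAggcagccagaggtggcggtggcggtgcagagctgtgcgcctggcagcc
Dkk2 chr3:132085042-132085291 (plus strand): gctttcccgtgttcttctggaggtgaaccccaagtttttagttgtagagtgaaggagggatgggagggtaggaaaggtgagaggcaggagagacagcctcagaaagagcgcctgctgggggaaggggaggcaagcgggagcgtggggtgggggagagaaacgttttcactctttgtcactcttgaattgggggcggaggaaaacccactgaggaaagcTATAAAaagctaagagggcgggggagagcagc
Wif1 chr10:121033754-121034003 (plus strand): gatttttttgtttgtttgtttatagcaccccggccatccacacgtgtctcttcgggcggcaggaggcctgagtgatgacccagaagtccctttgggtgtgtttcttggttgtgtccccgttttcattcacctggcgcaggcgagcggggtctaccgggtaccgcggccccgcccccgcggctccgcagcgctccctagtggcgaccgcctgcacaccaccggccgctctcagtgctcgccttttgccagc
The Dkk1 window held CTTTGAA at 117 to 111 bases and CTTTGTT at 98 to 92 bases before the start, with TATAAA at 54 to 49 bases. In the Dkk2 window there was no TCF/LEF match, and TATAAA lay at 32 to 27 bases. Neither kind of match was present in the Wif1 window. Among all 32851 windows of this length in the table, 14.8% held at least 1 such TCF/LEF match, 1.43% held 2 or more and 7.59% held TATAAA. The marked motifs did not overlap each other. These are matches of letters, no binding was measured, and a link between matches and the differences below was not tested.

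Before the inhibitors, the arrays themselves were checked. Sost, one of the targeted genes, fell on 1450179_at from 6.47 ± 0.28 (SD, n = 3) to 4.29 ± 0.19 (SD, n = 2), a difference of −2.17 ± 0.20 (SE, limma adjusted p = 0.0091). Sostdc1 differed by −2.35 on 1460250_at (adjusted p = 0.0233), while its brighter probe set stood at 8.93 and 8.89. The second Sost probe set, 1421245_at, differed by −0.73 (adjusted p = 0.237). The place of each probe set relative to the deleted parts was not known. Limb mesenchyme markers were brighter than the median probe set (mean log2 of 5.41) for 9 of 9 genes, and the hindlimb gene Pitx1 was below it at 5.08 and 5.01. Tbx4, also a hindlimb gene, was above it at 7.39 and 7.43. The groups also stood apart in measures other than the targeted genes. The spike-in Dap, an added bacterial RNA, was at 6.90 and 7.28 in double mutants against 3.23 to 3.36 in wild type. For Gapdh, signal at the 3' end exceeded that at the 5' end by 0.21 ± 0.08 in the mutant arrays and by −0.10 ± 0.04 in the others. For Actb the same measure was 0.60 ± 0.07 and 0.37 ± 0.27, and the groups overlapped. Both double mutant arrays held Xist, the RNA of the inactive X (12.37 and 11.75), together with the Y-linked Eif2s3y (8.36 in each). Wild type replicate 1 held Xist without Eif2s3y (12.28 and 3.20), and wild type replicates 2 and 3 the reverse. RNA of more than 1 embryo in a double mutant array was not tested. For every difference below, genotype cannot be told apart from how the samples were prepared, and in a whole bud a change in RNA per cell cannot be told apart from a change in the number of cells that make it.

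Across the inhibitors, 6 of 11 probe sets were called at an adjusted p under 0.05, 4 higher and 2 lower in double mutants. In the same fit 18.2% of all probe sets were called, 8.7% higher and 9.52% lower. With 1 probe set per gene, the one with the highest mean over the 5 arrays, Dkk1, Notum and Dkk4 rose, 0 of 7 genes fell and 4 were not called. On that basis 14.7% of all 18193 genes were called, 6.56% higher and 8.14% lower. The median difference over the 7 genes was 0.72, beside −0.02 over all genes, and 6 of the 7 differences were above 0. The arrays of the genotypes did not overlap in 10 of the 11 probe sets, as in 45.2% of all probe sets, and in 6 of the 7 genes, as in 43.2% of all genes. All 3 gene calls were lost whenever any 1 of the 5 arrays was left out, although the direction of each stayed.

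**Figure D1:**
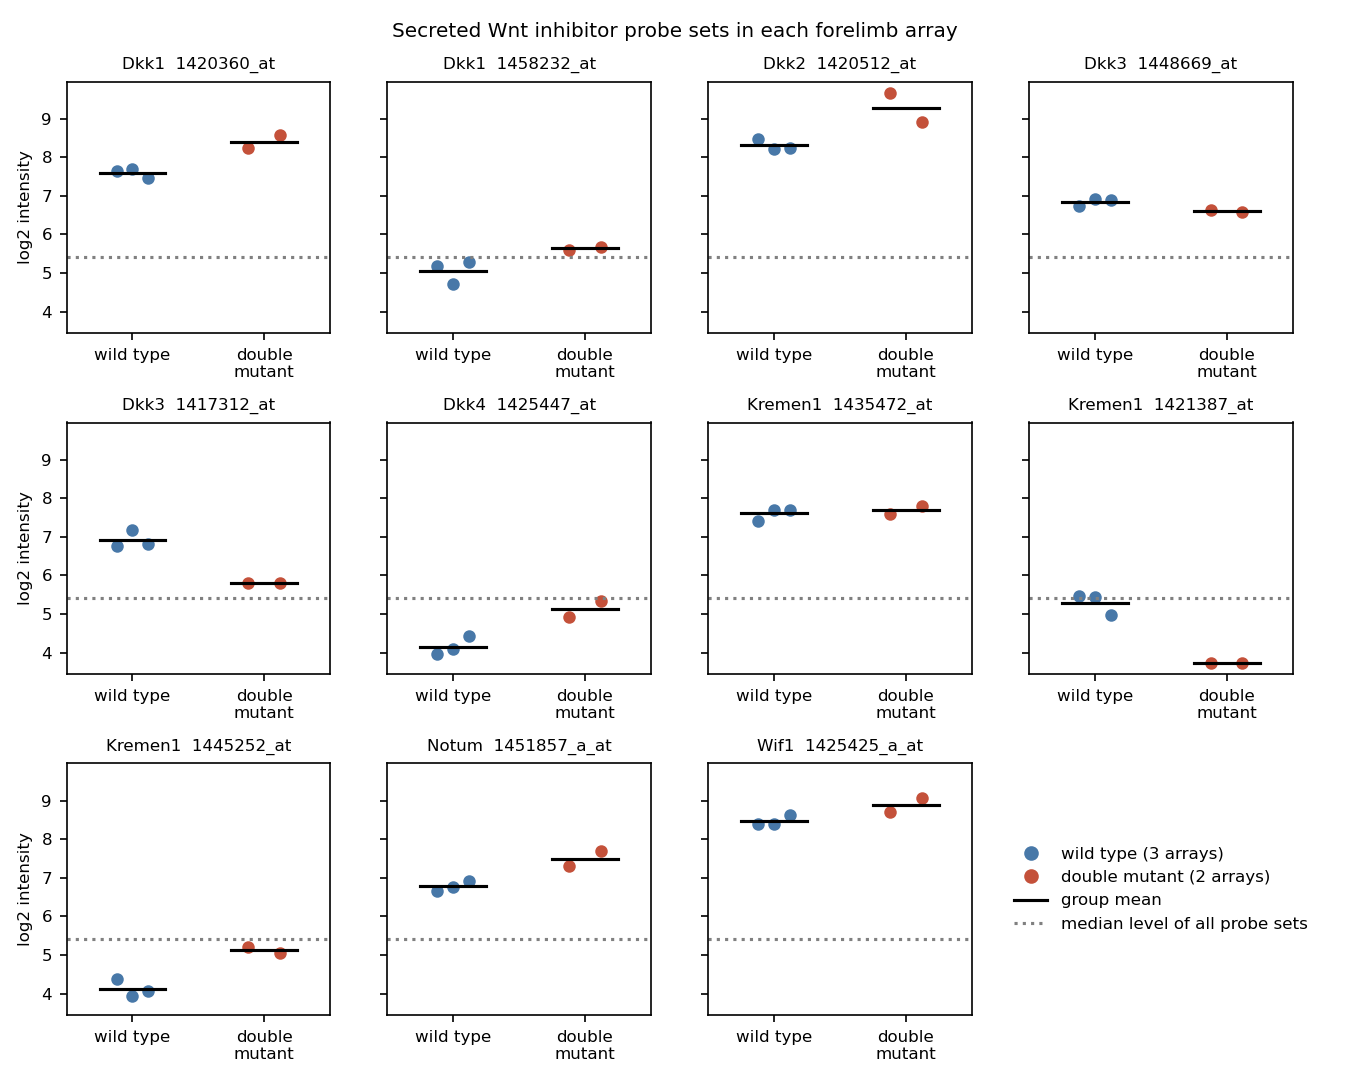
Log2 intensity (vertical axis) of the 11 inhibitor probe sets in each of 3 wild type (blue) and 2 double mutant (red) arrays, with group means as black bars and the median probe set level, 5.41, as a dotted line. Dkk1, Dkk2, Dkk4, Notum and Wif1 sit higher in both double mutant arrays than in any wild type array, Wif1 by only 0.056. The panels of Dkk3 and Kremen1 differ from one probe set to the next. Of all probe sets, 45.2% have no overlap between the groups.

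Dkk1, the best known Dickkopf antagonist of LRP5 and LRP6, had 2 probe sets. On the brighter one, 1420360_at, the double mutant arrays read 8.23 and 8.57 and the wild type arrays 7.64, 7.68 and 7.46. Both double mutant values lay above all wild type values. The group means were 8.40 ± 0.25 (SD, n = 2) and 7.59 ± 0.12 (SD, n = 3). Dkk1 therefore rose by 0.81 ± 0.14 (SE, limma adjusted p = 0.0283), a 1.75-fold increase with a 95% confidence interval of 1.35 to 2.26. The dimmer probe set, 1458232_at, read 5.60 and 5.68 in double mutants and 5.17, 4.71 and 5.30 in wild type. Its groups did not overlap either, but its difference of 0.59 ± 0.20 (SE) was not called (adjusted p = 0.131). The differences on the 2 Dkk1 probe sets were 0.22 apart (exact permutation p = 0.5 over 10 splits of the arrays, two-sided, where 0.1 is the smallest possible). When single arrays were dropped the rise on 1420360_at lay between 0.63 and 0.98, with adjusted p from 0.0621 to 0.110.

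Dkk4, a Dickkopf antagonist close to Dkk1 in action and a known β-catenin target, was dim. On its only probe set, 1425447_at, the double mutant arrays read 4.94 and 5.33 and the wild type arrays 3.96, 4.09 and 4.43. The groups were separate, yet all 5 values lay below the median probe set level. Trpn, a control for a transcript that is absent, read 3.10 and 3.07 in the respective groups. Dkk4 rose by 0.98 ± 0.20 (SE, limma adjusted p = 0.0423), 1.97-fold with a confidence interval of 1.35 to 2.86. Leaving out 1 array at a time gave 0.78 to 1.17 and adjusted p from 0.0557 to 0.167. Adding 16 to each intensity before log2 reduced the difference to 0.59, a fall of more than 1.5 times that left the call in place (adjusted p = 0.0459).

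Dkk2, which can act for or against Wnt signalling depending on the Kremen proteins present, showed the widest spread. Its probe set, 1420512_at, read 9.66 and 8.91 in double mutants and 8.47, 8.22 and 8.24 in wild type. Double mutant replicate 1 stood well above replicate 2, and both were above all wild type arrays. The difference of 0.97 ± 0.25 (SE) had about the size of that of Dkk4 but was not called (limma adjusted p = 0.0712), with a confidence interval of 0.29 to 1.66. It passed with equal array medians (0.88, adjusted p = 0.0292), with quantile normalization (1.04, adjusted p = 0.0357), with probe sets above the median level alone (0.97, adjusted p = 0.0401) and without double mutant replicate 2 (1.35, adjusted p = 0.0464). Without double mutant replicate 1 it was 0.60.

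Dkk3, a divergent family member that does not act as a standard LRP6 antagonist, had both of its differences below 0. On its brighter probe set, 1448669_at, double mutants read 6.62 and 6.58 and wild type 6.73, 6.92 and 6.90. The groups were separate by a small margin, and the difference of −0.25 ± 0.08 (SE) was not called (limma adjusted p = 0.112). On 1417312_at, double mutants read 5.81 and 5.79 and wild type 6.77, 7.17 and 6.81. Dkk3 fell there by 1.12 ± 0.14 on the log2 scale (SE, adjusted p = 0.0157), with wild type 2.17-fold above double mutants. The platform annotation derives both probe sets from the same transcript record, yet their differences were 0.87 apart (exact permutation p = 0.1 over 10 splits, two-sided, the smallest possible). Leaving out 1 array at a time kept the fall on 1417312_at between −0.99 and −1.19, with the call kept only without wild type replicate 3 (adjusted p = 0.0487).

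**Figure D2:**
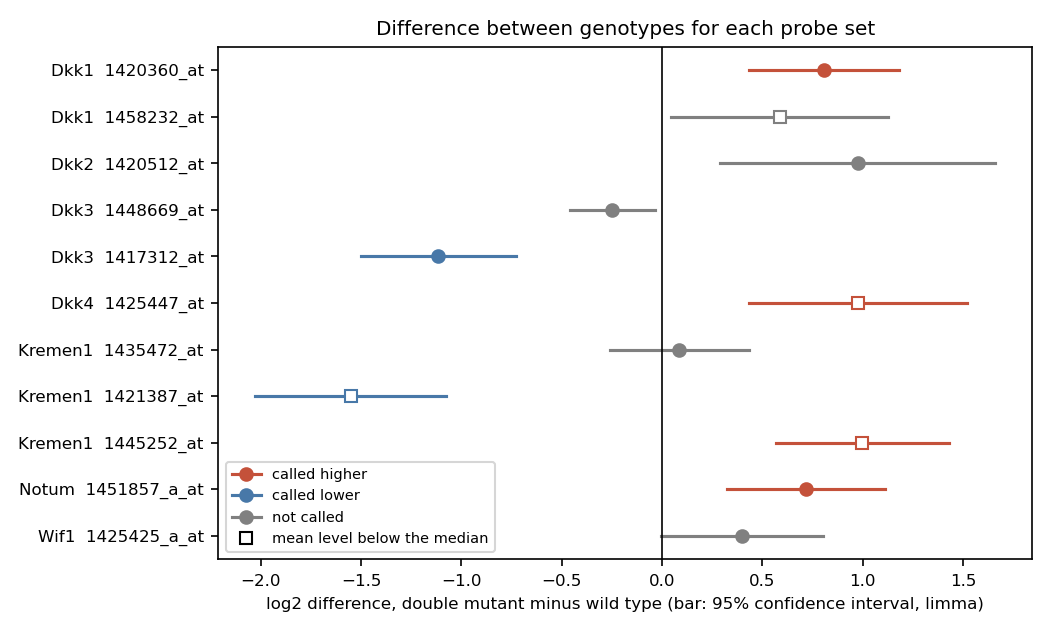
Log2 difference, double mutant minus wild type (horizontal axis), for each inhibitor probe set with its 95% confidence interval from limma. Open squares are probe sets whose mean level lies below the median of all probe sets. Dkk1, Dkk4, Notum and 1 Kremen1 probe set are called higher (red), 1 probe set each of Dkk3 and Kremen1 is called lower (blue), and the rest are not called (grey).

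Kremen1, the measured Dickkopf receptor, gave 3 different readings on 3 probe sets. On the brightest, 1435472_at, double mutants read 7.59 and 7.79 and wild type 7.41, 7.70 and 7.70, so the groups overlapped. This was the only overlapping probe set of the 11, and its difference of 0.09 ± 0.13 (SE, limma adjusted p = 0.682) had a confidence interval of −0.26 to 0.43. On 1421387_at, double mutants read 3.74 in both arrays and wild type 5.47, 5.44 and 4.98. Kremen1 signal fell there by 1.55 ± 0.18 on the log2 scale (SE, adjusted p = 0.0126), to a double mutant level not far above Trpn. On 1445252_at, double mutants read 5.20 and 5.06 and wild type 4.39, 3.93 and 4.08. Signal rose there by 0.998 ± 0.16 (SE, adjusted p = 0.0248), so the pair of dim probe sets was called in opposite directions. The differences of these 2 dim probe sets were 2.55 apart (exact permutation p = 0.1, the smallest possible). With 16 added to each intensity before log2 both calls stayed, at smaller differences of −0.92 on 1421387_at (adjusted p = 0.0190) and 0.60 on 1445252_at (adjusted p = 0.0227). Which Kremen1 transcripts each probe set reads was not known, and the mean over all 3 differed by −0.16 ± 0.07 (SE, adjusted p = 0.181). Each of the 2 dim calls was kept in 1 of the 5 fits with an array left out, the fall without wild type replicate 3 (adjusted p = 0.0101) and the rise without wild type replicate 1 (adjusted p = 0.0390).

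Notum, the enzyme that inactivates Wnt proteins, had 1 probe set, 1451857_a_at. Double mutants read 7.30 and 7.69 and wild type 6.67, 6.76 and 6.91. Both double mutant arrays lay above every wild type array, with means of 7.49 ± 0.27 (SD, n = 2) and 6.78 ± 0.12 (SD, n = 3). Notum rose by 0.72 ± 0.15 (SE, limma adjusted p = 0.0417), 1.64-fold with a confidence interval of 1.25 to 2.16. With single arrays left out the rise lay between 0.53 and 0.91, and adjusted p between 0.0662 and 0.162.

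Wif1, which binds Wnt proteins outside the cell, also had 1 probe set, 1425425_a_at. It read 8.69 and 9.06 in double mutants and 8.39, 8.40 and 8.64 in wild type. The lower double mutant array was close to the highest wild type array, and no call was made for the difference of 0.40 ± 0.15 (SE, limma adjusted p = 0.158). As a ratio this was 1.32, with a confidence interval of 0.998 to 1.74. The difference was 0.22 without double mutant replicate 2 and 0.35 to 0.58 without any other single array.

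For each risen gene, the 3 genes with the most similar values were sought among 11135 genes above the median level. Likeness was the Euclidean distance between log2 values over the 5 arrays, each gene centred on its own mean. Nearest to Dkk1 were Gpx2, a glutathione peroxidase gene (distance 0.13), Dusp6, an FGF-induced phosphatase that dampens the same pathway (0.14), and Pigf, a gene of GPI anchor synthesis (0.15). Notum was most like Ccne2, which encodes a cyclin E (0.07), Miga1 (0.09) and Tmem161b (0.11). Dkk4 was most like Vav2 (0.20), Ankrd10 (0.21) and Snap91 (0.22). These 9 genes differed between the genotypes by 0.67 to 0.97, so the distance reads the group difference along with the spread inside each group.

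The co-receptors that Dickkopf proteins bind were not called. Lrp6 read 9.52 ± 0.0033 in double mutants and 9.90 ± 0.15 in wild type on its brighter probe set, a difference of −0.37 ± 0.10 (SE, limma adjusted p = 0.0753). Lrp5 read 5.31 ± 0.03 and 5.56 ± 0.11, near the median probe set level (adjusted p = 0.107). Lrp4, a relative of these receptors that binds sclerostin and is not a standard Wnt receptor, rose by 0.70 ± 0.08 (SE, adjusted p = 0.0123). Of 16 measured receptor and co-receptor genes 1 rose, 3 fell and 12 were not called, with a median difference of −0.09. The falls were those of Fzd8 (−0.77), Fzd6 (−0.45) and Ror1, a receptor for Wnt5a (−0.57). Their 22 further probe sets gave 1 call higher and 8 lower. Of the 16752 further probe sets of all genes, 8.66% were called higher and 15.0% lower.

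The remaining pathway genes were called in both directions. Over all 5 pathway lists, the receptors included, 12 of 67 genes were called, 5 higher and 7 lower. Among all genes on the same basis 14.7% were called, 6.56% higher and 8.14% lower. Among 13 other extracellular antagonists, which include the targeted Sost and Sostdc1, 0 rose and 2 fell, Sost and the frizzled-related gene Sfrp1 (−0.64 ± 0.11, SE, limma adjusted p = 0.0309). The median of that list was −0.23 and 11 of its 13 differences were below 0, beside a median of 0.72 for the Dickkopf, Kremen, Notum and Wif1 genes. Their 21 further probe sets gave 0 calls higher and 8 lower. Draxin, an axon guidance protein that also binds LRP6, stood at −0.50 (adjusted p = 0.0849). Among the 19 Wnt ligand genes Wnt6 (0.88 ± 0.16, SE) and Wnt5a (0.63 ± 0.14) rose and Wnt2 (−0.84 ± 0.16) fell, with a median of 0.02. In the list for Wnt acylation, Wnt release and glypicans, 2 of 8 genes rose, the glypican genes Gpc1 (0.60 ± 0.09) and Gpc2 (0.82 ± 0.16), with a median of 0.05. Among 11 canonical readouts 1 fell, Ccn4 (−0.61 ± 0.11), and the median was 0.04. The 13 further readout probe sets gave 2 calls higher and 1 lower. Axin2, the readout most used for the pathway, read 9.07 ± 0.06 and 9.12 ± 0.19 (adjusted p = 0.831) on its brighter probe set and fell by 1.66 on the other (adjusted p = 0.0217). Lef1, a TCF/LEF factor that the pathway induces, differed by 0.51 ± 0.17 (adjusted p = 0.118) on its brighter probe set and by −0.94 (adjusted p = 0.0938) on the other.

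**Figure D3:**
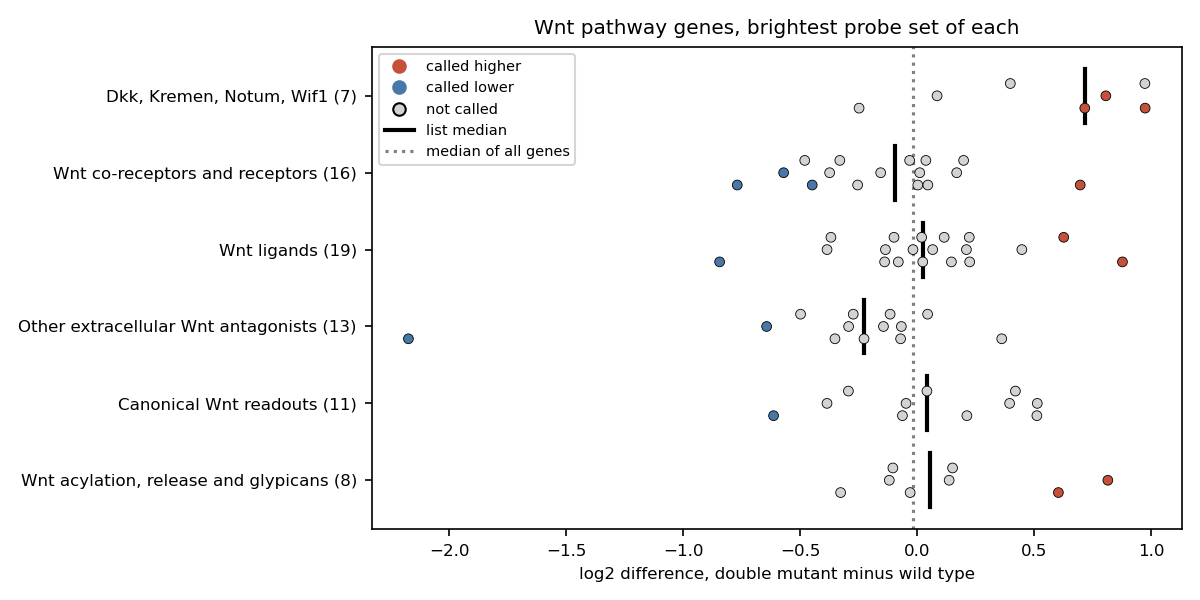
Log2 difference, double mutant minus wild type (horizontal axis), on the brightest probe set of each gene (points) in the inhibitor set and 5 Wnt pathway lists, with the number of genes in brackets. Black bars are medians and the dotted line is the median of all genes. The inhibitor set has its median at 0.72, and the 5 lists have medians between −0.23 and 0.05.

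Markers of the surface ectoderm and apical ridge, the epithelium that sends FGF signals to the bud, were in part higher in double mutants, as were Dkk1, Dkk4 and Notum. Of 15 listed markers 14 were measured, 7 rose, 0 fell and 13 were brighter than the median probe set. Their summed intensity was 6649 to 6736 in double mutants and 4369 to 4891 in wild type, with no overlap. Among them Fgf8, the main ridge FGF, rose by 1.29 ± 0.25 (SE, limma adjusted p = 0.0364), and Epcam, an epithelial adhesion molecule, by 0.76 ± 0.05 (adjusted p = 0.0067). The keratin gene Krt5 and the ectodermal factor gene En1 stood the other way without a call, at −0.38 (adjusted p = 0.157) and −0.27 (adjusted p = 0.338). The 14 further probe sets of the list gave 2 calls higher and 1 lower. Wnt7a differed by 0.07 with overlapping groups (limma adjusted p = 0.762). The part of the ectoderm and ridge shift in the inhibitor differences was not tested. The 9 limb mesenchyme markers summed to 22779 to 23776 and 22438 to 23172, with limma calling 0 of 9 and 1 at an unadjusted p under 0.05. Their 14 further probe sets gave 0 calls higher and 6 lower.

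The endothelial, erythroid, muscle progenitor and macrophage marker lists had lower sums in double mutants. Summed endothelial markers stood at 1048 to 1096 in double mutants and 1452 to 1534 in wild type, where Pecam1 and Emcn were the 2 of 5 called, both lower. Cdh5 (−0.06), Kdr (−0.03) and Tek (−0.06), also endothelial, overlapped between the groups and were not called. Erythroid markers summed to 32433 to 35130 and 37993 to 39798, with 2 of 4 called, both lower, Hba-x (−0.45) and Alas2 (−1.89). Hbb-y, the brightest of them, differed by −0.01 (limma adjusted p = 0.894). Hba-a1, which was dim, stood the other way without a call, at 0.17 (adjusted p = 0.176). Muscle progenitor markers summed to 1195 to 1360 and 1528 to 1682, and of 6 genes limma called Myod1 alone (−1.10). Pax3 stood the other way, at 0.79 without overlap between the groups (limma adjusted p = 0.160), and Myf5 differed by 0.05. Pax7 (−0.59), Lbx1 (−0.31) and Met (−0.03) were not called. For macrophage markers the sums were 438 to 587 and 644 to 730, with limma calling 0 of 4 and 1 at an unadjusted p under 0.05. That gene was Csf1r, the brightest of them, at −0.63 (limma adjusted p = 0.0716). Ptprc stood at −0.21, while Cd68 (0.10) and Aif1 (−0.06) overlapped between the groups.

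**Figure D4:**
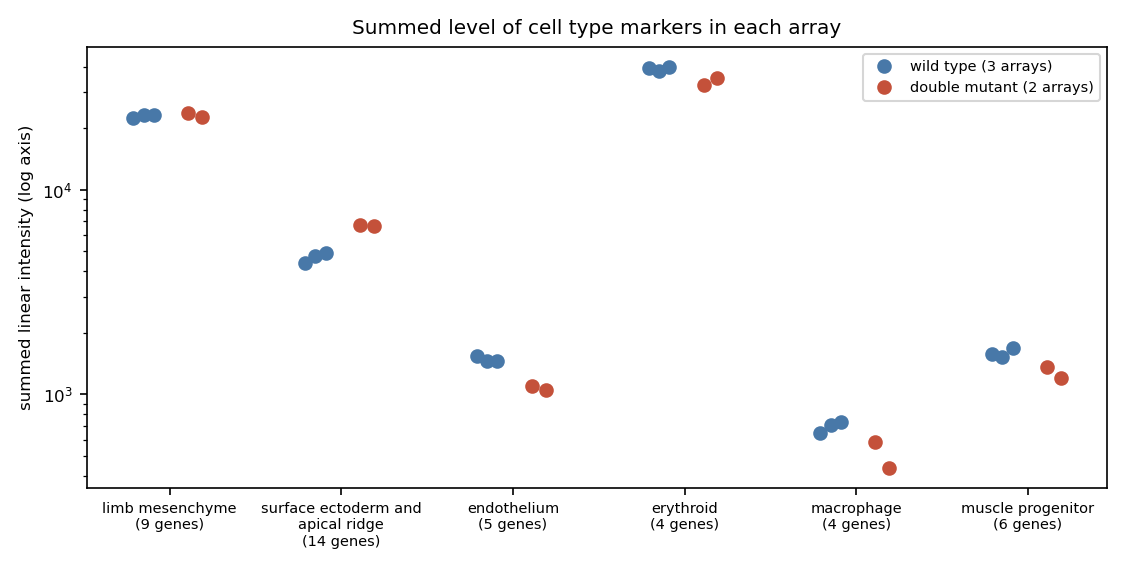
Summed linear intensity (vertical log axis) of the brightest probe sets of cell type markers in each wild type (blue) and double mutant (red) array. The ectoderm and ridge sum is above every wild type array in both double mutants, at 6649 to 6736 against 4369 to 4891, while limb mesenchyme overlaps between the groups.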

How the data were processed

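RNA of 5 forelimb samples was measured on single-channel Affymetrix arrays after biotin labelling with a 2-cycle amplification kit, per the labels' protocols. The deposited values are linear intensities, 1 per probe set and array. RMA and limma are named in the submitters' processing notes, with no version, role or order, and the remaining settings are not given in the sources used here. Array medians lay between 39.4 and 44.4, so log2 was taken with no further normalization.

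Of 45101 probe sets, 64 controls were left out. Symbols came from the platform annotation; 34945 tested probe sets had 1 symbol, 932 several and 9160 none, and none was renamed through its gene identifier. The genotypes were tested with limma 3.58.1 (R 4.3.3; 1 mean per genotype, no covariate, eBayes without trend, 3 residual and 1.29 prior degrees of freedom), two-sided, with Benjamini-Hochberg adjustment over all 45037 probe sets. The number of arrays limits the precision. On simulated data of the same design, 6% of 50 probe sets changed 1.5-fold, 58% changed 2-fold, 78% changed 4-fold and 90% changed 8-fold were recovered, with 3 false calls among 45037. The simulated data held far fewer changed probe sets than the 8206 called here. Their noise was independent between arrays and probe sets, with no effect of preparation. The rates and false calls therefore do not carry over to the fit of the real arrays.

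The members and the gene lists (5 Wnt pathway lists and the cell type markers) were chosen with earlier results of these data known. Up to 3 genes per pathway list with the smallest p were named, plus Sost, Sostdc1, Lrp5, Lrp6, Axin2 and Lef1. Ror1 completes a count, and marker genes were named after their values were seen. Of the listed pathway genes, Mesd and Tcf7 had no probe set under a single symbol and were not analysed here. Scaling, pseudocount, filter, moderation, replicate block, probe set choice and single arrays were varied.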

Additional observations from a re-analysis of the deposited data

How the results depend on the processing

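With all 5 arrays kept and no block, the count of called inhibitor probe sets was 6 with 16 added before log2 or an intensity trend. It was 7 with equal array medians or quantile normalization, and 4 of the 7 bright ones when dim probe sets were left out. Among all 45037 probe sets, the calls were 8143, 8322, 9625 and 9045 in that order of settings. With dim ones left out, 7573 of all 22518 were called. The count of called genes was 3 or 4 in those settings and 4 by the mean of all probe sets per gene (3 higher, 1 lower). On second brightest probe sets, which 3 of these genes have, it was 2, both lower. Of all probe sets other than the brightest of each gene, 8.66% were called higher and 15.0% lower in the main fit. Leaving out 1 array at a time gave 0 to 2 inhibitor probe sets, 0 to 1 inhibitor genes, 0 to 5 of 67 pathway genes (12 with all arrays) and 0 to 5108 of all probe sets (8206 with all arrays). The lowest counts came without double mutant replicate 1 or wild type replicate 2, where limma called 0 of all probe sets, with 14059 and 11115 at an unadjusted p under 0.05, among them 8 and 7 of the 11 inhibitor probe sets.

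With the replicate number as a block, 1 inhibitor probe set (lower), 0 inhibitor genes, 0 pathway genes and 2351 of all probe sets were called. At an unadjusted p under 0.05 in limma stood 4 of 7 inhibitor genes and 17 of 67 pathway genes, beside 12301 of all 45037 probe sets. The same-numbered arrays' deviations from their group means correlated at 0.09 and 0.12 over 2 pairs, so the numbers were not taken to pair the samples, and the fit kept 1 residual degree of freedom. The uncalled Kremen1 difference on 1435472_at changed sign with equal array medians (−0.0051) and without double mutant replicate 2 or wild type replicate 1 (−0.012 in each), and single arrays left out gave −0.012 to 0.183. In 78 of 117 comparisons of single inhibitor probe sets the direction and the side of the threshold stayed, in 32 a call was lost and in 4, all of Dkk2, one was gained. Signal close to that of an absent transcript limits Dkk4 and the dim Kremen1 probe sets.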
